A study of Mus musculus with 41 samples.

Results

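The comparison described here sets mouse germline stem cells carrying an inducible Rhox10 fusion against the same kind of cells carrying an empty vector, 8 h into a time course, and sets that difference against the one already present at 0 h. It rests on 4 of the 41 samples of the series, 2 labelled Rhox10 at 8 h and 2 labelled Ctrl at 8 h, with 4 further libraries (Rhox10 and Ctrl at 0 h) as the baseline. All come from iSLAM-seq, a form of RNA sequencing that metabolically labels RNA after a transcription factor is switched on, which supplied 24 libraries over 6 times (0, 0.5, 1, 2, 4 and 8 h). The series also holds 8 RNA-seq samples and 9 CUT&Tag samples, which are used below only as other readouts of the same genes.

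The cells were germline stem cells of strain C57BL/6, derived from neonatal testes and grown in IMDM/SFM medium. In every group, control included, endogenous Rhox10 had been knocked down with an shRNA lentivirus, and the carriers were sorted for green fluorescence. The Rhox10 group then received a lentivirus for a Rhox10-ERT2-mCherry fusion that responds to 4-hydroxytamoxifen, and the Ctrl group received an ERT2-mCherry vector without Rhox10. The labels do not say whether Ctrl cells were given 4-hydroxytamoxifen, nor whether the cells were clones. The 2 libraries of a group are called biological replicates without a statement that they were separate cultures. The p-values therefore measure the spread between these libraries.

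RHOX10 is an X-linked homeobox transcription factor of the germline, known for its role when foetal-type germ cells become spermatogonial stem cells. Those cells are maintained by GDNF, acting through the receptors GFRA1 and RET, and by FGF2. Their signals converge on ERK and on transcription factors such as ETV5, EGR2, EGR3, BCL6B, LHX1 and POU3F1. Immediate-early genes such as Fos, Egr1 and Nr4a1 are transcribed within minutes of ERK and stress signals. Interferon-stimulated genes form a separate program: nucleic acid sensors or interferon receptors activate STAT and IRF transcription factors, which bind IRF-type elements in the promoters of antiviral genes.

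The 4 libraries at 8 h held 9419615 to 10670254 counts, and all 24 held 9419615 to 12645845. Levels are in CPM, counts scaled to a common library size, and differences are log2 fold changes, Rhox10 minus Ctrl. Reads came from a 3′ end kit, so a CPM is not divided by gene length. Nothing in the table tells if unconverted reads entered the counts beside those with T-to-C conversions, so a difference cannot be read as new transcription alone. In such bulk libraries, fewer cells of a type and less RNA per cell cannot be told apart. The log2 CPM of the 2 replicates correlated across genes at 0.967 to 0.979 in every group except Ctrl at 0.5 h (0.956), whose chi-square per degree of freedom was 30.0 against at most 4.69 elsewhere.

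Rhox10 itself was already high before induction. At 0 h it stood at 38.5 and 35.7 CPM in the Rhox10 libraries and at 1.51 and 1.16 CPM in the Ctrl libraries. At 8 h the values were 43.7 and 36.9 CPM against 1.52 and 1.42 CPM. The groups did not overlap at either time, and the log2 difference was 4.79 at 0 h and 4.76 at 8 h, a change of -0.03 with a standard error of 0.64 (edgeR adjusted p = 0.994). The counts check which vector a library carried. They do not report induction, because an ERT2 fusion protein is held outside the nucleus until tamoxifen binds it.

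The marker genes of the labelled cell type were present. The summed level of 10 spermatogonial genes was 3024 to 3084 CPM in Ctrl and 2502 to 2599 CPM in Rhox10 at 8 h, and 2822 against 2357 to 2358 CPM at 0 h. Fibroblast and stromal markers were present too: 14 genes summed to 2647 to 2758 CPM in Ctrl and 2903 to 2978 CPM in Rhox10 at 8 h, and to 3093 to 3186 against 4129 to 4149 CPM at 0 h. Sertoli markers (13 genes) summed to 550 to 586 CPM in Ctrl and 392.2 to 420.1 CPM in Rhox10 at 8 h, against 377 to 378 and 476 to 483 CPM at 0 h, of which Sox9 gave 208 to 425 CPM. Amh, the defining early Sertoli hormone, had 0 counts in all 8 libraries, and Hsd3b1 and Insl3 of the Leydig list did as well. The stromal and Sertoli sums moved between 0 and 8 h differently in the vectors, and their part in the results below was not tested.

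At 8 h, 1663 of 20642 tested genes were higher in Rhox10 (8.06%) and 1814 were lower (8.79%) at an edgeR adjusted p under 0.05. Fewer genes were called at 0 h, where 1354 were higher (6.56%) and 892 lower (4.32%). The 8 h calls, 3477 in all, included 1267 with a call at 0 h too; the sign was shared in 1193 and opposite in 74. The change of the difference from 0 h, which removes what was there before, was called for 180 genes upwards (0.872%) and 350 genes downwards (1.7%). Without the composition factors, on library totals, the 8 h calls were 2012 higher and 1362 lower and the change calls 253 higher and 264 lower. That scaling moved the median of all tested genes by about 0.06 and 0.05 and the share of higher calls from 47.8% to 59.6% at 8 h and from 34.0% to 48.9% for the change. Leaving out any 1 of the libraries left 1976 to 2039 calls at 8 h, 1076 to 1327 at 0 h and 285 to 349 in the change (the fewest in each without the first Ctrl library of 8 h, 0 h and 8 h), against 530 in the change with all. Leaving out the libraries at 0.5 h, where the Ctrl replicates were furthest apart, gave 1355 change calls, which include all 530.

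**Figure D1:**
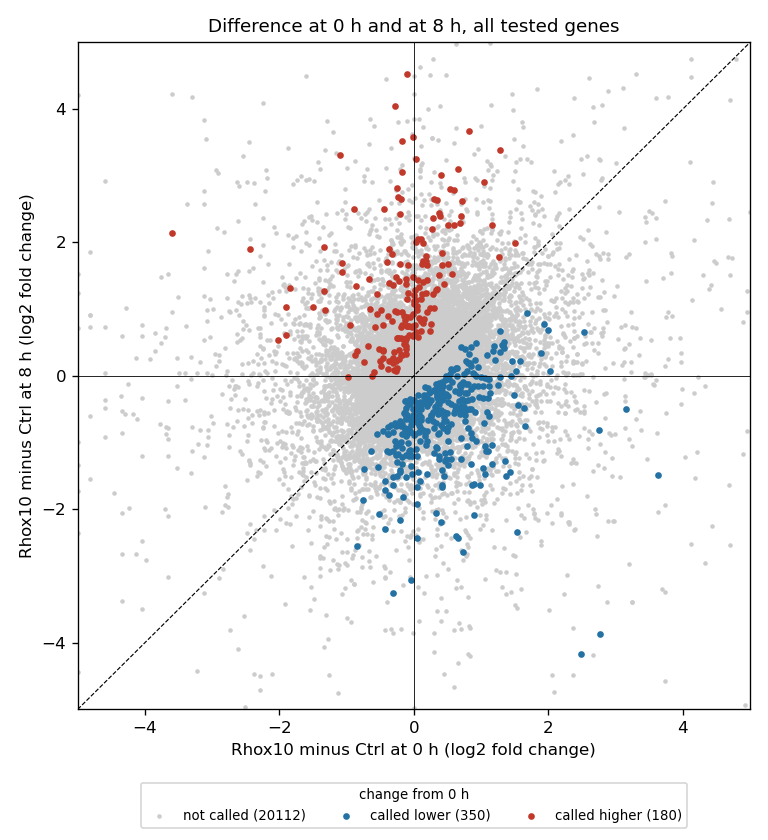
Each point is a tested gene, with the log2 difference between Rhox10 and Ctrl at 0 h on the x axis and at 8 h on the y axis, and the dashed line marks equal differences. The 180 genes called higher in the change lie above the line, most near 0 on the x axis, while many of the 350 called lower lie to the right of 0 on the x axis and below 0 on the y axis; 221 genes, 9 of them called, lie outside the plotted range.

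The genes that rose and the genes that fell differed in where they started. The 0 h difference is part of the change that chose them. Negative 0 h values are thereby favoured among rises and positive ones among falls, so the values below are a description only. Of the 180 that rose, 134 were not called at 0 h, and 125 of those were called at 8 h. Their median difference went from -0.12 at 0 h to 1.13 at 8 h, with a median change of 0.87 within Rhox10 and -0.31 within Ctrl. The 350 that fell did so relative to 0 h, and not all were lower in Rhox10 at 8 h. There 244 were called lower, 16 were called higher and 90 were not called. Of the 350, 170 had been called higher in Rhox10 at 0 h, and 67 were called higher at 0 h and lower at 8 h. The median difference of the 350 went from 0.38 to -0.58, with a median change of -0.49 within Rhox10 and 0.37 within Ctrl. Both Rhox10 libraries at 8 h lay beyond both Ctrl libraries for 175 of the 180 and 293 of the 350. The same 8 h values entered the calls and no share over all tested genes is given, so these counts are not separate support.

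The 4 genes taken as markers of this comparison all moved down relative to Ctrl between 0 h and 8 h, and all 4 were called. Egr3 (chromosome 14, 70077203 to 70082614), an early growth response factor induced by GDNF, was at 129 and 142 CPM in Ctrl and at 31.2 and 32.8 CPM in Rhox10 at 8 h. At 0 h it had been at 126 and 140 CPM against 90.5 and 95.6 CPM. The groups did not overlap at either time and the gap widened, from -0.52 to -2.08, a change of -1.56 with a standard error of 0.13 (edgeR adjusted p = 3.28e-08). From 0 h to 8 h the fitted change was 0.02 in Ctrl and -1.54 in Rhox10. Both had been higher in between, at 250 and 240 CPM in Ctrl and 166 and 158 CPM in Rhox10 at 2 h.

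Bcl6b (chromosome 11), a transcriptional repressor needed for stem cell maintenance, was at 409 and 394 CPM in Ctrl and at 139 and 131 CPM in Rhox10 at 8 h, after 294 and 281 against 219 and 210 CPM at 0 h. Here the Ctrl libraries had gained and the Rhox10 libraries had lost. The difference went from -0.42 to -1.57, a change of -1.15 (standard error 0.15, edgeR adjusted p = 2.63e-05).

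Lhx1, a LIM homeobox factor downstream of GDNF, was at 154 and 157 CPM against 59.1 and 58.7 CPM at 8 h, and at 138 and 123 against 86.5 and 68.7 CPM at 0 h. Part of its 8 h gap was present at the start. The difference went from -0.75 to -1.40, a change of -0.65 (standard error 0.14, edgeR adjusted p = 0.0120). This call did not survive the loss of single libraries: the adjusted p was 0.157 and 0.105 without the first Rhox10 and the second Ctrl library at 0 h. It was 0.0651, 0.0633, 0.0717 and 0.0733 without the first or second Ctrl and the first or second Rhox10 library at 8 h.

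Frmd6, a FERM-domain protein upstream of the Hippo kinases, reversed its sign. It was at 71.1 and 66.5 CPM in Ctrl and 48.0 and 38.4 CPM in Rhox10 at 8 h, but at 45.6 and 42.1 against 54.1 and 66.2 CPM at 0 h. Rhox10 was the higher group at the start and the lower group at 8 h, without overlap at either time. The difference went from 0.45 to -0.67, a change of -1.13 (standard error 0.19, edgeR adjusted p = 8.05e-04). Its 8 h call had an adjusted p of 0.0527 without the second Rhox10 library at 8 h.

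**Figure D2:**
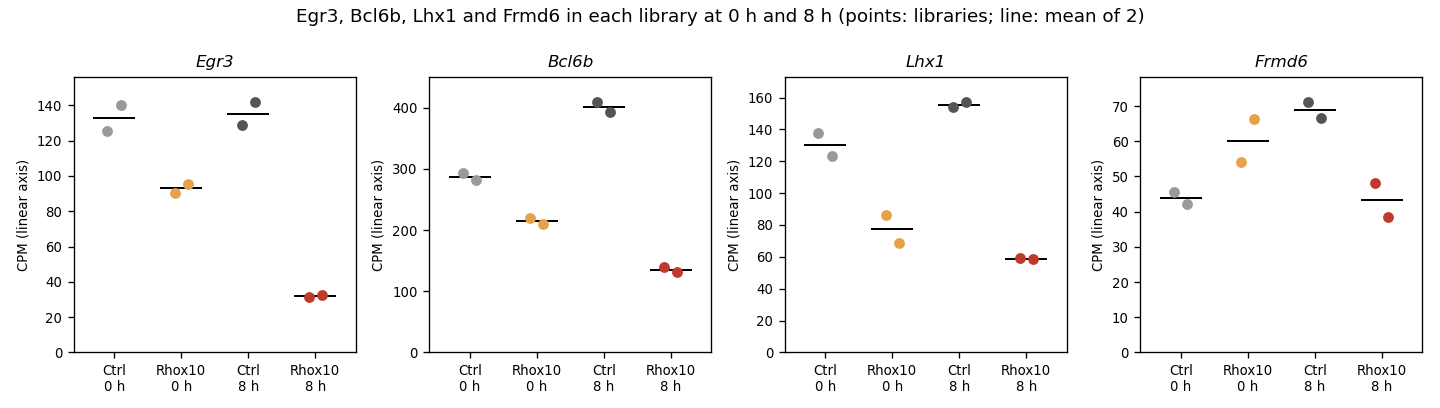
Levels in CPM (linear y axis from 0) of the 4 marker genes in the 8 libraries at 0 and 8 h, with points for libraries and a line for the mean of each group of 2. In Egr3 the 2 Rhox10 libraries at 8 h, at 31.2 and 32.8 CPM, sit below all 6 others, and in Frmd6 the order of the vectors is opposite at 0 h and 8 h.

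In the wider list of GDNF- and FGF2-regulated genes, 14 of 17 were lower and 0 higher at 8 h (median -0.77, against -0.00090 over all tested genes), and in the change from 0 h 6 were lower, 0 higher and 11 not called (median -0.36, against -0.02 over all). Beside Egr3, Bcl6b and Lhx1, the 6 were Egr2, an EGR factor (change -1.42), Pou3f1, a POU-domain factor (-0.38), and Ccnd2, cyclin D2 (-0.36). Ccnd2 was at 3061 and 3128 CPM in Ctrl and at 2312 and 2319 CPM in Rhox10 at 8 h, against 2404 and 2483 and 2365 and 2325 CPM at 0 h. It was higher in Ctrl at 8 h than at 0 h, while Rhox10 was at similar levels at both times, and the groups separated. Without 1 library 3 to 4 of the list were called in the change, and 9 to 10 at 8 h. Ccnd2 lost it without 7 of the 8 libraries, with an adjusted p of up to 0.103 without the first Ctrl library at 0 h.

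The receptors and several stem cell factors showed an 8 h difference that was not called as a change. Gfra1, the GDNF co-receptor, was at 47.2 and 42.7 CPM in Ctrl and 24.5 and 27.9 CPM in Rhox10 at 8 h, and at 45.2 and 46.9 against 27.4 and 32.4 CPM at 0 h (difference -0.62 at 0 h and -0.78 at 8 h). Nanos2, a translational repressor that holds cells in the stem state, differed by -1.46 at 0 h and -1.45 at 8 h. Etv5 (-0.43 and -0.44) and Ret (-0.27 and -0.28) showed the same pattern. For all 4, the gap at 8 h was close to the gap at 0 h and was called at both times.

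Among 16 spermatogonial transcription factors and stem cell markers, 8 were lower at 8 h and 0 higher, and 1, Foxc2, was lower in the change. Foxc2, a forkhead factor of quiescent spermatogonia, was at 83.2 and 88.2 CPM in Ctrl and 36.0 and 42.2 CPM in Rhox10 at 8 h (change -0.73, edgeR adjusted p = 0.00345, and 0.0612 without the first Rhox10 library at 8 h). Zbtb16, the PLZF repressor, differed by -0.32 at 8 h, and Dmrt1, a sex-determining factor kept in the male germline, by -0.20, which was not called. Of 15 differentiation and retinoic acid genes 3 were higher and 2 lower at 8 h (1 lower without any 1 library at 8 h), with 0 called in the change. Kit, the receptor that marks differentiating spermatogonia, differed by -0.02 at 8 h and 0.25 at 0 h, and neither was called. Germ cell and piRNA genes (8 of 15 lower at 8 h) and meiotic chromosome genes (7 of 15 lower at 8 h) had 1 and 0 calls in the change. The 1 was Mael, a piRNA pathway factor (-0.52), whose call was lost without each of the 8 libraries, with an adjusted p of up to 0.209 without the first Ctrl library at 0 h.

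The interferon-stimulated effectors were the list with the most rises. Of 46 tested, 41 were higher at 8 h and 0 lower (median 1.95), and 33 were higher and 0 lower in the change from 0 h (median 1.78, against -0.02 over all tested genes). At 0 h only 7 had been higher and 3 lower. Leaving out 1 library left 28 to 31 rises and 0 falls. The list, like all lists here, was written with earlier results of these data known.

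Ifit3, an antiviral protein with tetratricopeptide repeats, had the smallest p of all genes at 8 h. It stood at 26.5 and 24.8 CPM in Ctrl and at 253 and 234 CPM in Rhox10, while at 0 h the 4 libraries lay between 37.1 and 39.4 CPM. The vectors lay close together at the start and did not overlap at 8 h. The 8 h difference was 3.25 and the change 3.22 (standard error 0.15, edgeR adjusted p = 7.95e-12). Ifit3b, its near-identical neighbour, went from 6.75 and 10.4 against 8 and 7.18 CPM to 4.29 and 7.02 against 67.8 and 62.3 CPM (change 3.70). Reads of the Ifit3 copies may be divided between them.

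Cmpk2, a mitochondrial nucleotide kinase encoded next to Rsad2, was at 5.24 and 2.85 CPM in Ctrl and 65.6 and 69.5 CPM in Rhox10 at 8 h, and at 5.33 and 7.73 against 6.00 and 4.75 CPM at 0 h (change 4.33, standard error 0.42, edgeR adjusted p = 4.07e-07). Rsad2, the antiviral enzyme viperin, was at 38.2 and 38.7 CPM against 250 and 233 CPM (change 2.35). Both genes separated at 8 h from groups that lay close together at 0 h. Usp18, the protease that removes ISG15 and damps interferon signalling, was at 13 and 12.8 CPM against 108 and 115 CPM at 8 h. Isg15, the ubiquitin-like modifier itself, was at 132 and 113 CPM against 612 and 561 CPM. Changes were 2.45 and 1.76, and both had begun slightly higher in Rhox10 (0.66, called, and 0.51, not called).

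Other members widened the same picture. The GTPases Irgm2 (change 3.24), Igtp (2.63) and Iigp1 (2.86), which attack vacuoles of intracellular pathogens, rose, as did the oligoadenylate synthetase relative Oasl1 (3.07), the helicase Ddx60 (2.94) and the giant ubiquitin ligase Rnf213 (1.92). Irgm2, Iigp1, Ddx60 and Rnf213 were not on the list. Iigp1 stood at 8.96 and 9.36 CPM in Ctrl and 118 and 117 CPM in Rhox10 at 8 h. Oas1a had the same fitted change as Cmpk2 (4.33) at far lower levels, 2.00 and 2.24 CPM in Ctrl and 6.84 and 9 CPM in Rhox10 at 8 h. Its size rests on 0 h values of 0.273 and 0.404 CPM in Rhox10 and is imprecise (standard error 0.70). Mx1, the dynamin-like antiviral GTPase, was higher at 8 h (3.53) but was not called in the change (edgeR adjusted p = 0.0798).

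Several factors that transmit interferon signals rose as well. Of 30 tested sensors, IRF and STAT genes, 12 were higher and 1 lower at 8 h and 6 were higher and 0 lower in the change. Ddx58, which encodes the RNA sensor RIG-I, was at 31.9 and 35.8 CPM in Ctrl and 136 and 132 CPM in Rhox10 at 8 h, and between 38.9 and 45.1 CPM in all 4 libraries at 0 h (change 1.86, standard error 0.19, edgeR adjusted p = 1.03e-06). Only the Rhox10 libraries at 8 h stood apart. Ifih1, which encodes the RNA sensor MDA5 (1.94), Mavs, the adaptor of both (0.95), Stat2, a transcription factor of interferon receptors (1.99), and Irf9, its DNA-binding partner (0.96), were also called.

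The upstream factor Irf3 was at 51.8 and 50.8 CPM in Ctrl and 52.2 and 54.1 CPM in Rhox10 at 8 h (difference 0.05), and the DNA sensor Cgas at 29.9 and 33.2 against 30.8 and 34.3 CPM (0.05). Neither was called. Irf1, a factor of interferon gamma responses, differed by -0.04 at 8 h. In MHC class I presentation, 2 of 20 genes rose in the change, the peptide transporter Tap1 (1.25) and the immunoproteasome subunit Psmb10 (0.75). Tap1 had an adjusted p of 0.0528 without the first Ctrl library at 8 h. B2m, the invariant light chain, was higher in Rhox10 at both times (0.75 and 0.70), with a change of -0.05.

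Transcripts of the interferons themselves were nearly undetected. Of 21 interferon genes in the table, chosen after the rises above were seen, 16 had 0 counts in all 8 libraries at 0 and 8 h, and 1 gene passed the filter for testing. The highest count of any of them in any library was 8. Ifnb1 had 0 and 1 counts in the Rhox10 libraries at 8 h and 0 in both Ctrl libraries. The 21 genes summed to 12 and 9 counts in Rhox10 and 8 and 15 in Ctrl at 8 h. A count of 0 allows up to 3 counts, 0.281 to 0.318 CPM in the 8 h libraries, and covers counting error only. Levels below that were not detectable at this depth.

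Sequences that match an IRF element lie close to the start of several of these genes. The promoters, from RefSeq on GRCm38.p6, run from 250 bases before to 50 after each start, 300 in all, and the letters GAAANNGAA were searched on both strands. They occurred in 9.76% of 27025 genes with a promoter entry, in 8.46% of the 12732 tested genes that matched one, and in 31.9% of the 119 matched rises (38 genes). For the interferon effectors that rose, 27 of 33 matched and 16 held the element. The windows below come from the called effectors of smallest p that hold it, 30 bases each in the direction of the gene, with the element in capitals. The Ifit3b window, at chr19:34607813-34607842 (plus strand), is identical to that of Ifit3.
Ifit3, chr19:34583417-34583446, plus strand: tactttcctcTTCCCTTTCacaaacactga
Igtp, chr11:58199512-58199541, plus strand: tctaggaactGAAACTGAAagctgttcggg
Rsad2, chr12:26456552-26456581, minus strand: tggtccaactTTCATTTTCagaaaacagaa
Ifit1, chr19:34640795-34640824, plus strand: cagtctcagtTTCAGTTTCtcactgctgac
Trim25, chr11:88999384-88999413, plus strand: gcccctcctgTTCAGTTTCgattccttcct
The promoters of Ifit3, Ifit3b and Ifit1 held 3 matches each, of which 1 is shown, and those of Igtp, Rsad2 and Trim25 held 1. In the Igtp window the element reads on the strand of the gene, and in the other 4 windows on the opposite strand. In Igtp it begins 34 bases before the start and in Trim25, which encodes a ligase that activates RIG-I, 9 bases before it. These are matches of letters and say nothing on their own about binding.

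The same promoters were searched for 5 further motifs on both strands, none of whose letters contain those of another. Among the 259 matched genes that fell, the EGR site GCGNGGGCG was held by 17.4% (11.4% of matched tested genes and 6.27% of all entries) and the cAMP element TGACGTCA by 6.18% (3.28% and 2.03%). The AP-1 site TGANTCA was held by 11.2% of the falls and 15.1% of the rises (6.9% of tested genes and 8.97% of all entries). The CArG box was held by 2.70% of the falls (1.58% and 1.81%), and the homeodomain core TAATTA by 2.70% of the falls and 2.52% of the rises (3.61% and 6.12%). The IRF element was held by 9.65% of the falls.

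Immediate-early genes made up the list with the most falls. Of 26 tested, 19 were lower and 0 higher in the change (median -1.04). At 0 h 17 had been higher and 1 lower in Rhox10, and at 8 h 3 were higher and 14 lower. These genes declined in both vectors over the time course: from 0 to 8 h 25 of 26 fell in Rhox10 (median -1.72) and 15 of 26 fell in Ctrl (median -0.56). Leaving out 1 library left 17 to 19 falls in the change.

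Fosb, an AP-1 subunit, swung from above Ctrl to below it. It was at 66.2 and 64.8 CPM in Ctrl and 173 and 164 CPM in Rhox10 at 0 h, and at 11.3 and 13.6 against 4.87 and 3.97 CPM at 8 h. Rhox10 was the higher group at 0 h and the lower group at 8 h, with no overlap at either time. The difference went from 1.37 to -1.5 (change -2.86, standard error 0.21, edgeR adjusted p = 1.57e-08). Nr4a3, an orphan nuclear receptor, went the same way at lower levels, from 0.89 to -2.08.

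Egr1, the founding member of its family, was at 620 and 614 against 695 and 683 CPM at 0 h and at 204 and 200 against 108 and 108 CPM at 8 h (change -1.06, edgeR adjusted p = 3.28e-08). Nr4a2, another orphan receptor, was at 121 and 131 against 302 and 311 CPM at 0 h and at 65.5 and 69.3 against 65.3 and 67.1 CPM at 8 h. The 2 genes reached their calls differently: Egr1 was lower in Rhox10 at 8 h, while the Nr4a2 groups overlapped at 8 h and the change reflects the gap at 0 h. Junb (-1.58), Nr4a1 (-1.95), Atf3 (-1.35), Jun (-0.85) and Fos (-0.77) were called too. Myc (-1.03) and Ier2 (-0.53) were not.

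**Figure D3:**
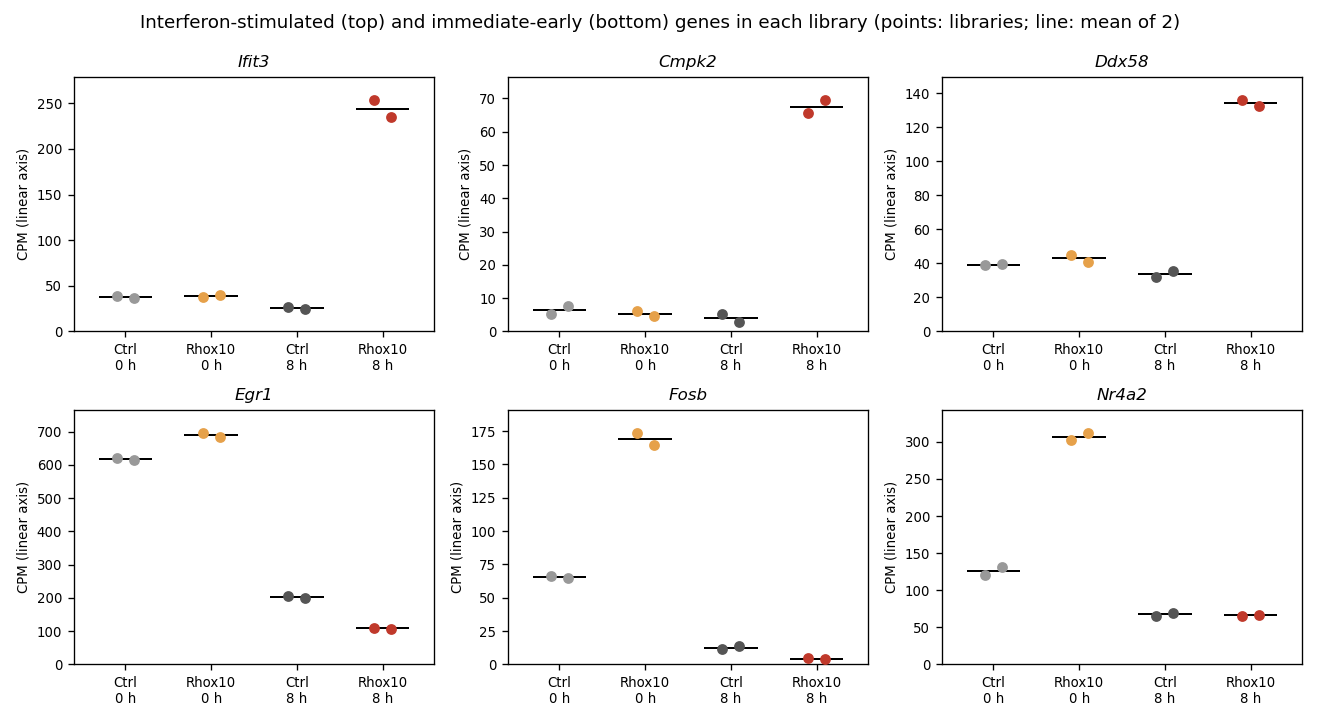
Levels in CPM (linear y axis from 0) of 3 interferon-pathway genes (top) and 3 immediate-early genes (bottom) in the 8 libraries at 0 and 8 h, with points for libraries and a line for each group mean. The top row is low except for Rhox10 at 8 h (253 and 234 CPM for Ifit3), and the bottom row falls in both vectors from 0 h to 8 h.

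Some of the inhibitors that ERK signalling itself induces fell. Of 14 tested, 5 were lower, 0 higher and 9 not called in the change (median -0.53) and 6 were lower at 8 h. Dusp5, a nuclear ERK phosphatase, was at 149 and 144 CPM in Ctrl and 53.3 and 61.0 CPM in Rhox10 at 8 h, and between 82.2 and 93.7 CPM in all 4 libraries at 0 h (change -1.31, edgeR adjusted p = 4.04e-07). Relative to 0 h, Ctrl was higher and Rhox10 lower at 8 h. Rhox10 had first risen to 186 and 180 CPM at 2 h, against 146 and 152 CPM in Ctrl. The phosphatases Dusp2 (-2.06) and Dusp1 (-1.28), the receptor tyrosine kinase inhibitor Spry2 (-1.24) and Phlda1 (-1.40) completed the 5. The 8 h call of Phlda1 was lost without 3 of the 4 libraries at 8 h, with an adjusted p of up to 0.273 without the first Rhox10 library. Dusp6, the cytoplasmic ERK phosphatase, had a change of -0.33 and Spry4 of -0.45, and neither was called.

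With Dusp5, Pim1 and Ubald1 were the 3 genes of smallest p lower at 8 h among those with an unadjusted p above 0.05 at 0 h. Pim1, a serine/threonine kinase, was at 379 and 370 CPM in Ctrl and 167 and 175 CPM in Rhox10 (8 h difference -1.13). Ubald1, whose role is little described, was at 147 and 156 against 72.5 and 66.6 CPM (-1.13). Trib1, a pseudokinase, went from 137 and 141 against 198 and 206 CPM at 0 h to 131 and 132 against 54.1 and 65.2 CPM at 8 h. Ctrl was at similar levels at 0 h and 8 h, though at 235 and 229 CPM at 2 h. Rhox10 moved from above Ctrl to below it (change -1.68, edgeR adjusted p = 1.57e-08). Mt2, a metallothionein, also crossed over (change -0.92), and its 8 h call had an adjusted p of 0.0577 without the second Rhox10 library at 8 h.

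The largest falls by size included several genes of low level. Snap25, a component of the vesicle fusion machinery, was at 14.7 and 17.7 CPM in Ctrl and 4.15 and 2.22 CPM in Rhox10 at 8 h, and at 1.42 and 1.95 against 6.45 and 3.34 CPM at 0 h (change -3.89, standard error 0.54). Rasgrf1, a paternally expressed RAS exchange factor, was at 18.3 and 19.4 against 3.4 and 4.8 CPM at 8 h and between 3.20 and 5.76 CPM at 0 h (change -2.59). Between 0 h and 8 h the larger movement in both genes was a rise in Ctrl. In Rhox10, Snap25 had been at 10.8 and 11.2 CPM at 2 h and Rasgrf1 at 14.4 and 12.7 CPM at 4 h. Cavin2, a caveolar coat protein, was at 12.3 and 12.9 against 2.18 and 0.484 CPM at 8 h (change -2.94). Bhlhe40, a circadian repressor, fell by 2.5 on the log2 scale and Creb5, a CREB-family factor, by 2.47. Ccn5 (-2.62) and Lsmem1 (-2.40) were called in the change but not at 8 h. Cartpt (-2.47), a neuropeptide precursor, lost its call in the change without 4 of the 8 libraries, with an adjusted p of up to 0.0839 without the first Rhox10 library at 8 h. Ccn5 lost it without 5 and Lsmem1 without 3, with up to 0.114 and 0.101 without the second Rhox10 library at 8 h. The 8 h call of Creb5 had an adjusted p of 0.163 without that library and 0.0832 without the first Ctrl library.

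Tfpi2 and Btc, also among the 10 largest rises, are known for other functions than interferon responses. Tfpi2, a Kunitz-type protease inhibitor, was at 1.52 and 1.12 CPM in Ctrl and 15.2 and 16.7 CPM in Rhox10 at 8 h, and at 0.888 and 2.31 against 1.18 and 2.02 CPM at 0 h (change 3.59, edgeR adjusted p = 0.00885). Btc, the epidermal growth factor receptor ligand betacellulin, was at 2.19 and 1.53 against 11.3 and 12.7 CPM at 8 h (change 2.92, edgeR adjusted p = 0.0186). In both genes the vectors were level at 0 h and did not overlap at 8 h. Without the second Ctrl library at 0 h the adjusted p was 0.186 for Tfpi2 and 0.263 for Btc. Both also lost the call without the second Ctrl library at 8 h (0.0501 and 0.0875) or the first Rhox10 library at 0 h (0.0542 and 0.098), and Btc without the second Rhox10 library at 8 h (0.063).

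Stress-response lists were also examined. Of 20 NRF2 antioxidant genes, 14 were higher at 0 h and 8 at 8 h, and 7 were lower and 0 higher in the change (median -0.44). With 1 library left out, 4 to 6 were called higher at 8 h and 5 to 7 lower in the change. Slc7a11, the cystine importer, was at 14.1 and 12.1 against 52.4 and 52.5 CPM at 0 h and at 18.7 and 26.0 against 38.2 and 34.1 CPM at 8 h (change -1.31). Sqstm1, the autophagy receptor p62, crossed over, from 364 and 355 against 584 and 569 CPM to 619 and 634 against 437 and 450 CPM (change -1.18, edgeR adjusted p = 9.98e-08). Hmox1, haem oxygenase, fell by 1.29 in the change. Its 8 h call (edgeR adjusted p = 0.0462) was lost without any 1 of the libraries at 8 h, with an adjusted p of up to 0.462 without the first Ctrl library.

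Of 22 p53 targets, 13 were higher at 0 h and 11 at 8 h, and 5 were lower in the change, among them Btg2 (-1.22), an antiproliferative factor that is also on the immediate-early list. With 1 library left out, 1 to 3 of the list were called; Mdm2, the ubiquitin ligase of p53, was not called without each of the 8 libraries (adjusted p up to 0.22, without the first Ctrl library at 8 h). Cdkn1a, the p21 cell cycle inhibitor, had a change of -0.13, which was not called. In the integrated stress response 3 of 20 were lower in the change: Slc7a11, the transcription factor Atf4 (-0.67) and its partner Ddit3 (-1.10). Ddit3 had an adjusted p of 0.0709 and 0.054 without the second Ctrl or second Rhox10 library at 0 h and 0.0935 without the first Rhox10 library at 8 h. Of 19 glycolysis and hypoxia genes, 2 were lower (1 to 2 without 1 library), Ndrg1 and the angiogenic ligand Vegfa (-0.87), which lost its call without 7 of the 8 libraries, with an adjusted p of up to 0.154 without the second Ctrl library at 0 h. Ndrg1 went from 28.1 and 27.4 against 46.4 and 59.2 CPM at 0 h to 102 and 100 against 50.9 and 51.8 CPM at 8 h (change -1.90). At 4 h it had been at 88.5 and 87.8 CPM in Ctrl and at 142 and 144 CPM in Rhox10, before Rhox10 fell. The heat shock list had 2 rises of 14, the chaperones Hspa1a (0.92) and Hsph1 (0.77), of which 0 to 2 were called without 1 library. Without the second Ctrl library at 8 h the adjusted p was 0.169 for Hspa1a, and without the first it was 0.0703 for Hsph1.

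Hippo and BMP genes changed in few members. Of 24 Hippo pathway genes and YAP targets, 4 were lower in the change: Frmd6, the YAP target Ankrd1 (-1.72), the YAP-binding angiomotin Amotl2 (-1.05) and the DNA-binding partner Tead1 (-0.57). The classical targets Ccn1 (-2.04) and Ccn2 (-2.21) were not called, and Yap1 had a change of 0.08. Amotl2 lost its call without each of the 8 libraries, with an adjusted p of up to 0.112 without the first Rhox10 library at 8 h. Bmp2, a ligand, was at 54.5 and 65.9 against 167 and 174 CPM at 0 h and at 59.4 and 70.3 against 260 and 257 CPM at 8 h, a gap of 1.5 that became 2.00. The change was 0.50 (edgeR adjusted p = 0.0429), and 0.239 without the second Ctrl library at 0 h. Msx1, a homeobox target of BMP signals, was the 1 fall among 22 (-1.05), and was not called without the second Rhox10 library at 8 h (adjusted p = 0.115).

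Cell division and sterol synthesis differed at 8 h without a called change. Of 23 cell cycle and replication genes, 10 were lower at 8 h (6 to 8 without 1 library) and 9 at 0 h, with 0 called in the change (median -0.11). Mki67, a proliferation antigen, was at 285 and 264 CPM in Ctrl and 166 and 178 CPM in Rhox10 at 8 h, and at 290 and 288 against 234 and 213 CPM at 0 h. Of 20 cholesterol synthesis genes, 11 were lower at 8 h (7 to 9 without 1 library) and 6 at 0 h, with 0 called in the change (median -0.12). When the libraries at 0.5 h were left out, 1 cell cycle gene was called higher and 5 cell cycle and 3 cholesterol genes were called lower in the change. Tet2, which oxidises 5-methylcytosine, was higher at 0 h (1.07) and at 8 h (1.96), with a change of 0.89 (edgeR adjusted p = 0.112), and 0 of 8 DNA methyltransferase and TET genes were called in the change. NF-kB targets had 1 fall of 17, Nfkb1 (-0.84), which had an adjusted p of 0.253 without the second Ctrl library at 0 h.

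The somatic lists had few calls. In the change 2 of 14 stromal genes were lower, Col1a1 (-0.51) and Tagln (-2.17), and 3 of 10 tested Sertoli genes, Sox9 (-1.02), Inhbb (-0.63) and Kitl (-1.26). Sox9 was at 425 and 391 CPM in Ctrl and 221 and 230 CPM in Rhox10 at 8 h, against 222 and 208 and 249 and 231 CPM at 0 h. Relative to 0 h, Ctrl was higher at 8 h and Rhox10 was at a similar level. Between those times Rhox10 had been above Ctrl, with 525 and 536 against 305 and 322 CPM at 2 h, and then fell. Leaving out 1 library left 0 to 1 stromal and 1 to 2 Sertoli calls. The adjusted p reached 0.21 for Col1a1 without the second Ctrl library at 0 h, 0.197 for Tagln and 0.233 for Kitl without the first Rhox10 library at 8 h, and 0.237 for Inhbb without the first Ctrl library at 8 h. The Leydig list (3 tested) and the macrophage and endothelial list (7 tested) had 0.

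**Figure D4:**
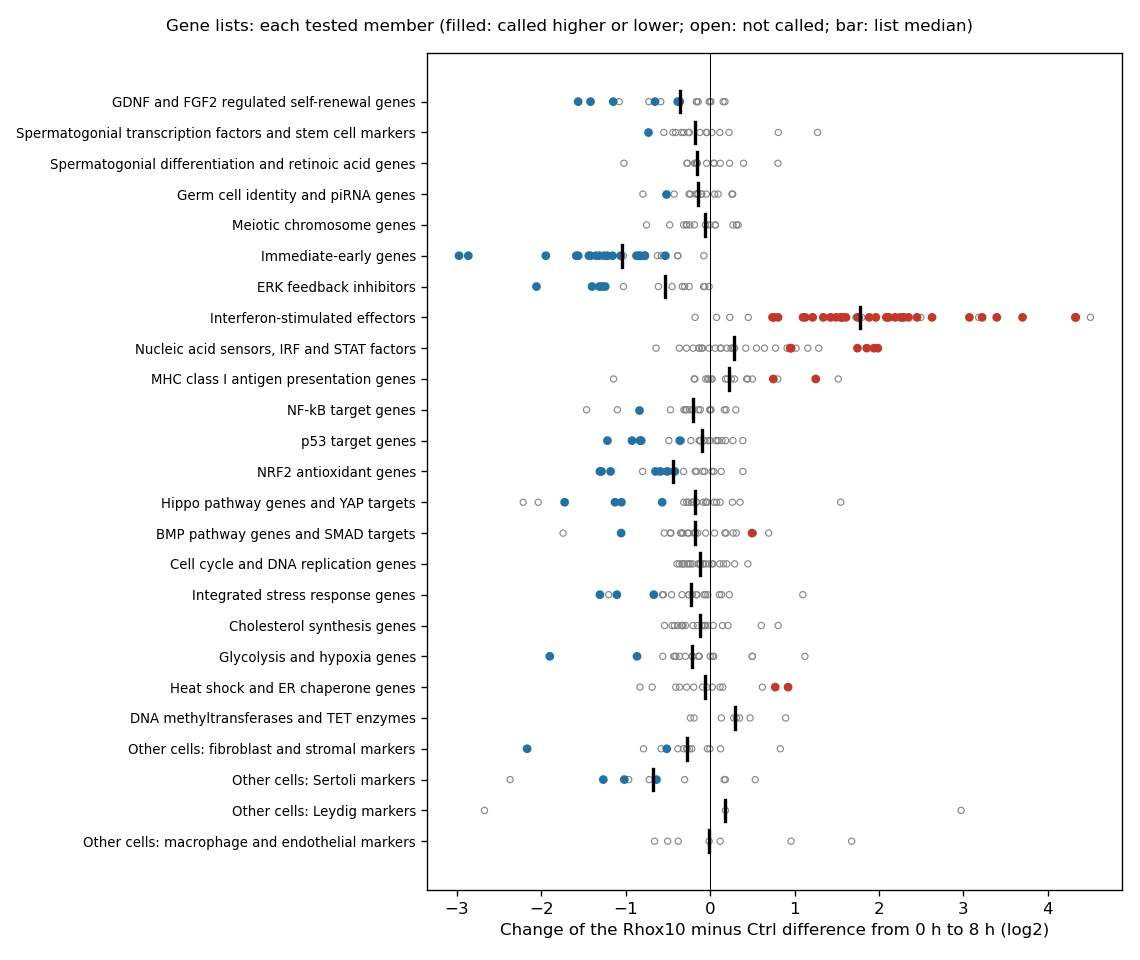
Change of the Rhox10 minus Ctrl difference from 0 h to 8 h (log2, x axis) for each tested member of the 25 lists (rows), with filled points for called genes, open points for the others and a bar for the list median. The interferon effectors lie to the right with a median of 1.78 and the immediate-early genes to the left with a median of -1.04, while most other medians lie near 0.

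The earlier times show when these differences appeared. Of the 180 genes that rose, 25 were called higher at 2 h and 61 at 4 h, and of the 350 that fell, 38 were called lower at 2 h and 108 at 4 h. The Ifit3 difference was 0.03, 0.05, -0.03, 0.36, 1.2 and 3.25 at 0, 0.5, 1, 2, 4 and 8 h. Ifih1 was early among these genes, with 1.03 at 2 h and 1.61 at 4 h, whereas Ddx58 was at 0.18 at 4 h and 1.99 at 8 h. Rnf213 was at 0.13 at 4 h and 2.2 at 8 h. Tfpi2 was at 3.73 and 1.99 CPM in Rhox10 at 0.5 h against 0.605 and 0 CPM in Ctrl, a fitted difference of 3.19 (standard error 0.71) that is imprecise because Ctrl is near 0, and the difference was 2.26 at 1 h. Btc climbed through 0.16, 0.96, 1.60 and 2.26 before 2.68.

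Several of the falls had reached their 8 h size by 4 h. Egr3 stayed between -0.76 and -0.52 up to 2 h and reached -2.11 at 4 h and -2.08 at 8 h. Egr2 (-1.85 and -1.79), Dusp2 (-1.50 and -1.63), Bhlhe40 (-1.36 and -1.64) and Trib1 (-1.29 and -1.14) likewise had similar differences at 4 h and 8 h. Egr1 was further apart at 4 h (-1.66) than at 8 h (-0.90). Frmd6 (0.16 at 4 h), Spry2 (0.29), Ndrg1 (0.70) and Nr4a3 (1.08) were still above Ctrl at 4 h and turned negative at 8 h. All times share the same fit, and the differences between neighbouring times were not tested.

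**Figure D5:**
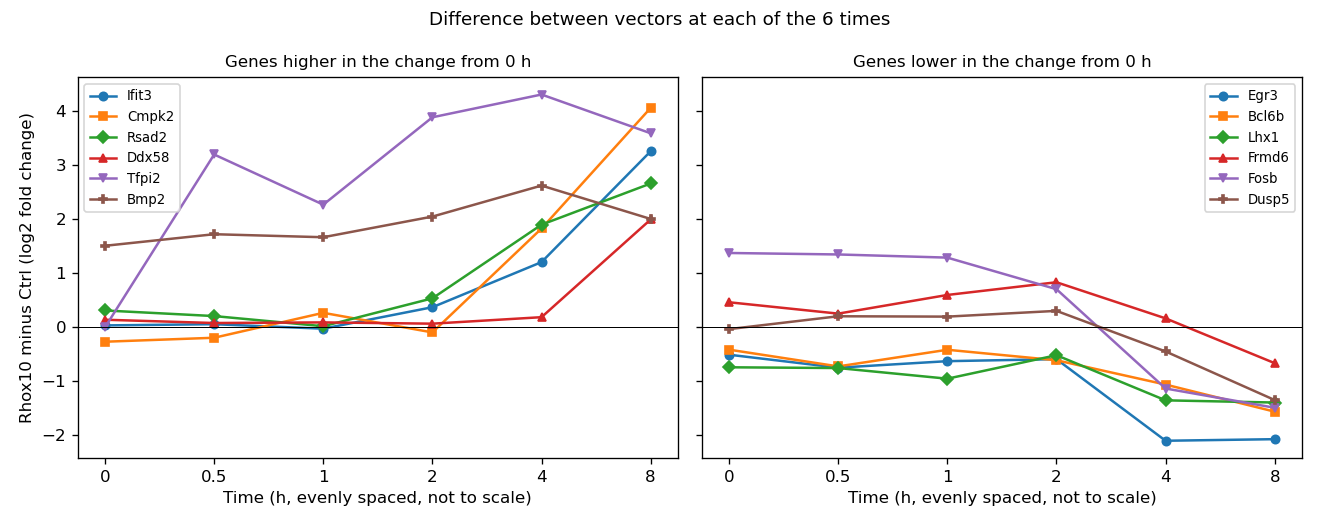
Log2 difference between Rhox10 and Ctrl (y axis) at each of the 6 times (x axis, evenly spaced and not to scale) for 6 genes called higher (left) and 6 called lower (right) in the change from 0 h. Ifit3, Cmpk2 and Rsad2 are at 1.2, 1.82 and 1.89 at 4 h, when Ddx58 is at 0.18, and Tfpi2 has a difference of 3.19 at 0.5 h over Ctrl levels near 0; on the right Egr3 drops between 2 h and 4 h to -2.11.

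CUT&Tag gave an independent view of where RHOX10 was found. A gene was counted as peak-linked when the deposited table placed a peak within 3 kb of its start, which held for 20.1% of tested genes. Among the 180 rises 35 were linked (19.4%) and among the 350 falls 108 (30.9%). The shares of genes higher and lower at 8 h were 25.3% and 29.6%. The sets also differed in level, with a median of 9.53 CPM over all tested genes, 29.6 CPM for the rises and 65.7 CPM for the falls, and the part of level in these shares was not tested.

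Of the marker genes, Bcl6b had a peak at chromosome 11, 70229614 to 70230532, and Frmd6 at chromosome 12, 70824866 to 70825488, while none was linked to Egr3 or Lhx1. The scores given by the authors were 85.7 and 413.3. Pou3f1 (151.7), Trib1 (381.6), Bhlhe40 (201.5), Ndrg1 (232.3) and Msx1 (90.8) were among the other falls with a peak. Of the 46 interferon effectors 4 were linked (8.70%, namely Adar, Bst2, Herc6 and Ifi27), against 20.1% of all tested genes. Of the 30 sensors and factors 12 were (40%), among them Mavs (149.4) and Ddx58 (16.6). Immediate-early genes had 8 of 26 (30.8%). A share of 40% was not particular to the sensors. Over the lists, shares ran from 0% for NF-kB targets to 43.5% for cell cycle genes, of which 0 were called in the change. The scores rank peaks within the deposited list and carry no replicate error.

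RNA-seq of germ cells, sorted for an OCT4-eGFP reporter from testes labelled wild-type or Rhox10-null, 4 libraries each with testes of 3 animals pooled, asked whether loss of the gene moved the same genes. Rhox10 had 3 to 10 counts in the libraries labelled wild-type and 4 to 11 in those labelled null, so its counts do not check the genotype labels. Of 13538 tested genes, 18.9% were lower and 18.6% higher in the libraries labelled null. Of the 180 rises 110 were tested there, with 17 lower and 28 higher, 15.5% and 25.5%. Of the 350 falls 292 were tested, with 46 lower and 103 higher, 15.8% and 35.3%. Over the 12562 genes tested in both assays the shares were 18.5% and 18.5%. On library totals without composition factors the median of all tested genes shifted by 0.347, with 629 genes lower and 7229 higher in all and 15 lower and 201 higher among the falls.

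Marker genes differed between the assays. Bcl6b was at 9.81 ± 1.39 CPM (SD, n = 4) in the libraries labelled wild-type and 4.20 ± 0.928 CPM in those labelled null (log2 difference -1.19, edgeR adjusted p = 2.96e-08). Lhx1 (-0.97) and Frmd6 (-0.78) were lower in the libraries labelled null as well, whereas Egr3 differed by 0.27 (adjusted p = 0.164) and was not called. Ddx58 was higher in the libraries labelled null (1.55). For Bcl6b, Lhx1 and Frmd6 the difference was negative both in the fusion-carrying cells at 8 h and in the cells labelled as lacking the gene; in the former, Bcl6b and Lhx1 were already lower at 0 h (-0.42 and -0.75). Of 16 self-renewal genes tested in RNA-seq 10 were lower and 0 higher in the libraries labelled null. Of 26 immediate-early genes 1 was lower and 17 higher, and of 16 interferon effectors 1 was lower and 1 higher. Such shifts were not particular to these lists. Of 14 germ cell and piRNA genes 13 were lower and 0 higher, and of 13 meiotic genes 9 were lower and 1 higher. Of 13 stromal markers 1 was lower and 9 higher, and of 10 macrophage and endothelial markers 0 were lower and 6 higher. Sertoli markers, 12 tested, had 2 lower and 2 higher. The part of cell content in the RNA-seq differences was not tested.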

How the data were processed

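The iSLAM-seq table and the RNA-seq table hold read counts per gene as the authors deposited them. Per the submitters' processing notes, build mm10 and limma 3.42.2 are named for iSLAM-seq, STAR 2.5.2b, featureCounts, DESeq2 and GRCm38 for RNA-seq, and Bowtie2 2.2.5, SAMtools, HOMER and mm10 for CUT&Tag. The deposited peak table gives a score per peak and the authors' distance to the nearest start in bases, which linked peaks to genes within 3 kb. Each peak lists the 3 RHOX10 libraries, but whether they were pooled to find peaks is not given in the sources used here.

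From the counts, genes were filtered with filterByExpr, scaled by TMM and tested with edgeR 4.0.16 (R 4.3.3) by quasi-likelihood F tests, with 12 group means over all 24 iSLAM-seq libraries sharing 1 estimate of spread and Benjamini-Hochberg adjustment over all 20642 tested genes. The contrasts were Rhox10 minus Ctrl at 8 h, the same at 0 h, and their difference (the change from 0 h). A gene is called at an adjusted p under 0.05. The standard error is the absolute log2 fold change over the root of F. The fit was tested on simulated data. RNA-seq was fitted alone, as Rhox10-null minus wild-type, over libraries of 6602089 to 8278887 counts. Alternatives were DESeq2 1.42.0, other scalings and filters, a replicate block, subsets of libraries and leaving out each library. Replicate numbers did not pair the libraries (correlation of same-numbered deviations 0.0072 at 8 h). Named genes were Rhox10 and 4 markers, the 10 largest rises and falls in the change with at least 5 CPM in a group and no overlap at 8 h, the 4 of smallest p with opposite calls at 0 and 8 h, 3 rises and 3 falls of smallest p at 8 h without a difference at 0 h, and up to 4 called members per list; other named genes are list members chosen for their known roles, in part after their values were seen. Members, lists and motifs were chosen with earlier results of these data known.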

Additional observations from a re-analysis of the deposited data

Results flagged for a closer look

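Several named genes had called differences of opposite sign at 0 and 8 h, so that the change from 0 h, which tests the difference itself, was called as well. They are 17 of 65 such genes that could be named. In Fosb, Trib1 and Phlda1 the edgeR adjusted p of the change was 1.57e-08 for each. It was 2.68e-08 for Mt2, 8.15e-08 for Bhlhe40, 9.98e-08 for Sqstm1 and 1.47e-07 for Ndrg1. It was 7.11e-06 for Hmox1, 1.43e-05 for Btg2, 1.68e-05 for Nr4a3, 4.82e-05 for Spry2 and 7.52e-05 for Snap25. It was 0.000343 for Txnrd1, 0.000529 for Oas1a, 0.000805 for Frmd6, 0.00119 for Creb5 and 0.00279 for Tead1. Oas1a went from lower to higher in Rhox10, and the others from higher to lower. The 8 h calls of Phlda1, Mt2, Hmox1, Btg2, Txnrd1, Creb5, Frmd6 and Tead1 were lost when 1 library was left out.

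In RNA-seq, Egr3 in the 4 libraries labelled null held 1 value far from the others: 5.79 CPM against 6.61 to 6.75 CPM, a gap of 0.85 of the range. Chance flags about 1 in 20 groups, and of 26 groups examined 1.3 would be expected.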

How the results depend on the processing

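The 530 change calls became 1025 with only the libraries at 0 and 8 h, 1355 without the libraries at 0.5 h, 268 at an absolute log2 change of at least 1, and 285 to 349 without 1 library. The 3477 calls at 8 h became 894 at an absolute log2 change of at least 1 and 1976 to 2039 without 1 library. The 2246 calls at 0 h became 3764 without the libraries at 0.5 h and 1076 to 1327 without 1 library. DESeq2 (609 and 3585 calls in the change and at 8 h), DESeq2 size factors, library totals, both filters and the removal of abundant genes kept these counts within 1.5 times, as did every alternative for the RNA-seq readout. With the replicate block there were 527 calls in the change, 507 of them shared with the 530. There were 3513 at 8 h, 2314 at 0 h and 196 against 194 in the RNA-seq readout. No named call was lost, and the numbers do not pair the libraries (correlations of same-numbered deviations of -0.0176 to 0.0353 between the groups at 0 and 8 h). Of named genes, 49 of 74 calls in the change and 53 of 65 at 8 h held under every alternative, and none changed sign. With 2 libraries a group, leaving 1 out assumes that the lone library varies like the other groups. Depth limits what can be said of genes under about 3 counts, the interferon genes among them.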
